A study of Mus musculus with 24 samples.

Results

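The colony-stimulating factors and their receptors were taken as 8 mouse genes chosen by symbol: the ligands Csf1, Csf2 and Csf3 and the receptor chains Csf1r, Csf2ra, Csf2rb, Csf2rb2 and Csf3r. Of the 22206 gene features on the arrays, 7 carried one of these symbols, 1 for each gene except Csf2rb2, which was not analysed here. The arrays measured RNA of RAW264.7 cells, a mouse macrophage line from a virus-induced tumour, in 8 groups of 3 arrays. The control cells received no active treatment, and the study's methods name PBS as the vehicle. A further 3 groups, low PAC, medium PAC and high PAC, were given proanthocyanidins (PAC) from grape at 15 µg/mL, named for their degree of polymerization. The other 4 groups received lipopolysaccharide (LPS), the endotoxin of Gram-negative bacteria, at 500 ng/mL, either alone (LPS) or after a PAC fraction (low PAC + LPS, medium PAC + LPS, high PAC + LPS). PAC was given 30 min before LPS or mock treatment, and RNA was taken after 6 hours. PAC are polymers of flavan-3-ol units, and the 3 fractions, each a single preparation from grape pomace, differ in their mean number of units. They were compared at equal mass, so a fraction of longer chains held fewer molecules. All 24 arrays came from this single tumour line, and the sources call the arrays of a group triplicates without saying whether they were separate cultures, so p-values reflect no more than the scatter among these arrays, which may be technical.

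Colony-stimulating factors are secreted proteins that keep myeloid cells alive and drive their growth and maturation. CSF-1 (M-CSF) signals through CSF1R, a receptor tyrosine kinase that defines the macrophage lineage and also binds IL-34. GM-CSF, the product of Csf2, binds a specific alpha chain encoded by Csf2ra and signals through a beta chain encoded by Csf2rb, which the IL-3 and IL-5 receptors share. Mice carry an additional, closely related beta chain gene, Csf2rb2, that serves IL-3 alone. G-CSF, the product of Csf3, acts on a receptor encoded by Csf3r that is best known from neutrophils and their precursors. The GM-CSF and G-CSF receptors have no kinase of their own and signal through JAK kinases and STAT factors. Activated macrophages make all 3 ligands, and the messages of Csf2 and Csf3 are short-lived because of AU-rich elements bound by decay factors.

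Promoter sequences are shown for Csf1 and Csf2, ligands with strong responses to LPS whose values under LPS behaved differently when PAC was present. They are the 250 bases before the RefSeq gene start on GRCm38.p6, at chr3:107760470-107760719 and chr11:54249900-54250149, both on the minus strand, with motif matches in capitals.
Csf1: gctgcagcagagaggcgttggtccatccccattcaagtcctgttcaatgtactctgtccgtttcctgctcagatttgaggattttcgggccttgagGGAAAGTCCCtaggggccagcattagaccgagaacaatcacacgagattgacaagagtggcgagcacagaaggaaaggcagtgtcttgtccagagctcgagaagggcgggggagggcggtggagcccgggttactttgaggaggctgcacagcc
Csf2: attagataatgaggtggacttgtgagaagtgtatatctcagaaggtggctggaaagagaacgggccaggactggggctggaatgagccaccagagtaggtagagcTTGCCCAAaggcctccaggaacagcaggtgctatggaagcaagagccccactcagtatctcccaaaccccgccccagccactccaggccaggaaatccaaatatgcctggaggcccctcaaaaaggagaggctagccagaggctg
The Csf2 window lies before the outermost start in that table, and which transcripts begin there was not examined. Bases before any start further inside the gene were not searched, so a motif missing from this window may still lie in a Csf2 promoter. The motifs searched on both strands were the NF-kappaB consensus, the CK-1 core GAGATTCC described in promoters of cytokine genes, the AP-1 motif TGANTCA and the C/EBP motif TTGCNNAA. The Csf1 window held 1 NF-kappaB match, 154 to 145 bases before the start, and the Csf2 window 1 C/EBP match, 145 to 138 bases before it. Of all 32851 promoter windows of the same length, 7.25% held an NF-kappaB match, 0.755% a CK-1 core, 6.75% an AP-1 match and 9.56% a C/EBP match. RefSeq windows are reported here for 5 of the 8 genes. Csf3r also held 1 NF-kappaB match, 129 to 120 bases before its start, whereas those of Csf2ra and Csf2rb2 held none of the 4 motifs. No matched motifs overlapped. A match is a description of these letters and not a binding site.

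Values are on the log2 scale deposited by the authors. The 95th percentile of 1414 olfactory and vomeronasal receptor features, genes taken as silent in macrophages, was 4.73 and served as a silent level. Of the 7 measured macrophage markers, 6 lay above it in every group, among them Adgre1, Itgam, Lyz2 and Csf1r itself. Of 6 neutrophil markers none lay above it in cells without LPS and 1, S100a8, did in each group with LPS. Of 5 lymphocyte markers only Cd4, of 4 fibroblast markers only Col1a1 and of 4 epithelial markers none exceeded it. The median over gene features lay between 4.86 and 5.06 on every array, the gap between positive and negative controls from 6.11 to 6.65, and correlations between replicate arrays from 0.989 to 0.994. Array 3 of medium PAC and arrays 2 and 3 of high PAC, all without LPS, stood apart from their groups in Il1b, an inflammatory cytokine: 9.39, 11.92 and 9.62, against 4.95 to 5.02 on the other 3 arrays of these groups and 4.86 to 6.40 in the control. Member calls in resting cells, and the Csf3 and Csf1 values that rest on these arrays, are also given without them. Their omission leaves arrays 1 and 2 of medium PAC and array 1 alone of high PAC. A change was called when its limma p-value, adjusted by Benjamini-Hochberg over all gene features, was under 0.05.

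The comparison of LPS with control asked how far an inflammatory stimulus set the levels of ligands and receptors. LPS raised 6 of the 7 measured members and lowered Csf1r. Of all gene features, 33.7% were called in this comparison, and the median change was 2.42 over the members against 0.03 over all features. The ligands rose by 13.28 (Csf3), 8.21 (Csf2) and 7.04 (Csf1), each from control values below the silent level, so these sizes have no order. The receptor chains moved less. Csf2rb rose by 2.42, Csf3r by 2.39 and Csf2ra by 0.90, while Csf1r fell by 3.02.

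Csf2, the gene for GM-CSF, was at 3.50, 3.66 and 3.37 on the control arrays and at 12.02, 11.59 and 11.56 after LPS. The groups were far apart. The change was 8.21 ± 0.38 (standard error; adjusted p = 2.93e-13, limma). All control arrays lay below the silent level, so the size of the rise depends on how the array reads an absent message; the LPS mean stood 6.99 above the silent level. Csf1 was at 3.88, 4.08 and 4.07 in control and at 10.84, 11.04 and 11.25 after LPS, a change of 7.04 ± 0.25 (adjusted p = 6.11e-15). Its LPS mean stood 6.31 above the silent level, and its control arrays were likewise below it. Csf3 was at 3.00, 3.54 and 3.54 in control and at 16.54, 16.73 and 16.65 after LPS, a change of 13.28 ± 0.91 (adjusted p = 1.62e-10), with control arrays below the silent level and the LPS mean 11.91 above it.

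Csf1r, the receptor for CSF-1, was at 17.48, 17.46 and 17.54 in control and at 14.44, 14.52 and 14.46 after LPS. The fall of 3.02 ± 0.10 (adjusted p = 2.05e-15) left the receptor 9.75 above the silent level. It was the only measured member that fell. Csf2rb, the shared signalling chain, was at 7.72, 7.51 and 7.23 in control and 10.14, 9.93 and 9.65 after LPS (2.42 ± 0.16, adjusted p = 6.86e-11). Csf2ra, the chain specific for GM-CSF, was at 14.19, 14.09 and 13.66 in control and 14.78, 14.98 and 14.87 after LPS (0.90 ± 0.17, adjusted p = 0.000188). Csf3r was at 4.81, 6.08 and 4.33 in control, around the silent level, and at 7.42, 7.96 and 6.99 after LPS (2.39 ± 0.43, adjusted p = 0.000116). For each of these receptor chains the LPS arrays and the control arrays did not overlap. The share of all features without such overlap is not given here. Whether the Csf2rb feature also reads the closely related Csf2rb2 message was not tested.

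**Figure D1:**
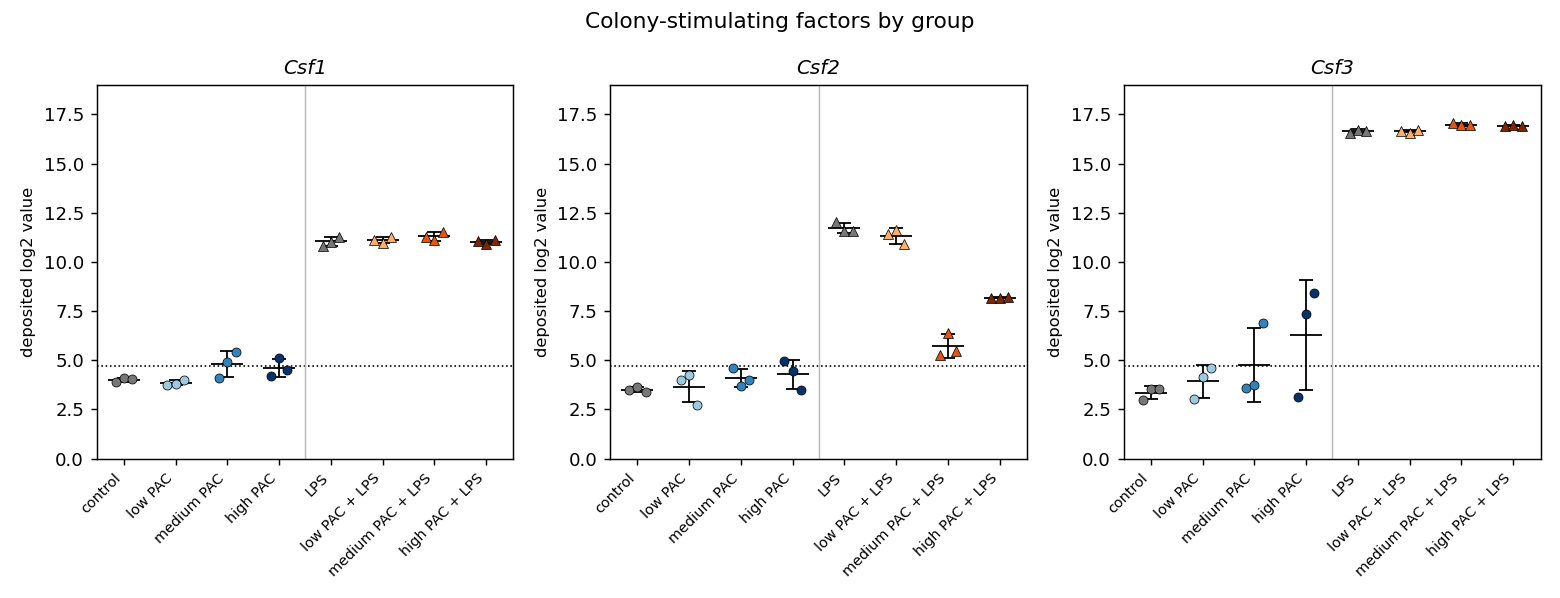
Deposited log2 values of Csf1, Csf2 and Csf3 (vertical axis) on each array in the 8 groups (horizontal axis), circles without and triangles with LPS; bars give mean ± SD of 3 arrays and the dotted line the silent level of 4.73. Csf2 is the ligand whose values with LPS separated by PAC fraction, with means of 5.72 for medium PAC + LPS and 8.19 for high PAC + LPS against 11.72 for LPS.

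The groups with PAC before LPS asked whether the PAC fractions altered the LPS-driven levels. Medium PAC + LPS lowered Csf2 and raised Csf2rb against LPS alone, and high PAC + LPS changed the same 2 members in the same directions. Medium PAC + LPS left 5 members without a call, as did high PAC + LPS. Of all gene features, 14.6% were called for medium PAC + LPS, 10.1% for high PAC + LPS and 0.149% for low PAC + LPS. Low PAC + LPS gave no member call by limma, with 2 members at an unadjusted p under 0.05. These comparisons share the LPS arrays, so they are not independent of each other.

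Csf2 was at 5.28, 6.40 and 5.47 in medium PAC + LPS, 8.17, 8.19 and 8.21 in high PAC + LPS and 11.44, 11.64 and 10.89 in low PAC + LPS. Every medium array lay below every high array, and every high array below every low and LPS array, whereas the low and LPS arrays overlapped. Against LPS alone, Csf2 fell by 6.00 ± 0.38 with medium PAC (adjusted p = 3.33e-10) and fell by 3.53 ± 0.38 with high PAC (adjusted p = 2.53e-06). With low PAC the change was -0.40 (95% interval -1.19 to 0.40, adjusted p = 0.872). The medium PAC + LPS mean of 5.72 ± 0.60 (SD, n = 3) remained 0.99 above the silent level, and all 3 of its arrays were above it. Of the 33 alternative settings tried for each of the medium and high PAC calls, none lost the call, and the fall ranged from -6.34 to -5.78 for medium and from -3.61 to -3.21 for high PAC.

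Csf2rb moved the other way. Its arrays were at 10.86, 10.85 and 10.90 in medium PAC + LPS and at 10.93, 10.60 and 10.79 in high PAC + LPS, all above the highest LPS array of 10.14. The rise over LPS was 0.96 ± 0.16 with medium PAC (adjusted p = 0.000141) and 0.87 ± 0.16 with high PAC (adjusted p = 0.000806). The high PAC call was lost when only the 2 compared groups were fitted (adjusted p = 0.059). Low PAC + LPS arrays, at 10.34, 10.53 and 10.59, also lay above the LPS arrays, but the difference of 0.58 (95% interval 0.25 to 0.91) had an adjusted p of 0.254. The alpha chain of the same receptor was not called. Csf2ra was at 14.62, 14.41 and 14.63 in medium PAC + LPS, a difference of -0.33 from LPS (adjusted p = 0.243).

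Csf1, Csf3, Csf1r and Csf3r gave no call for any PAC fraction under LPS. Csf1 ranged from 10.84 to 11.53 over the 12 arrays with LPS, and its difference from LPS was 0.26 for medium PAC (95% interval -0.28 to 0.79) and -0.01 for high PAC (-0.54 to 0.52). Csf1r stood between 14.18 and 14.52 on the same arrays, with differences from LPS of -0.25, -0.11 and -0.18 for low, medium and high PAC (adjusted p = 0.56, 0.593 and 0.329). Csf3r was at 7.54, 8.20 and 8.79 in high PAC + LPS, overlapping the LPS arrays, with a difference of 0.72 (95% interval -0.17 to 1.62, adjusted p = 0.347).

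Csf3 was at 17.05, 16.95 and 16.95 in medium PAC + LPS and at 16.90, 16.95 and 16.91 in high PAC + LPS. None of these arrays overlapped the LPS arrays, and the differences were 0.35 and 0.28. Neither was called (adjusted p = 0.88 and 0.905), with a standard error of 0.91 that is shared over all groups and carries the wide spread of Csf3 in resting medium and high PAC cells. In a fit of the 12 arrays with LPS alone, added after the data were seen, the standard error was 0.12 and the adjusted p 0.0897 for medium and 0.21 for high PAC. These values lie near the top of the scale, and whether the array compresses differences there was not tested.

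**Figure D2:**
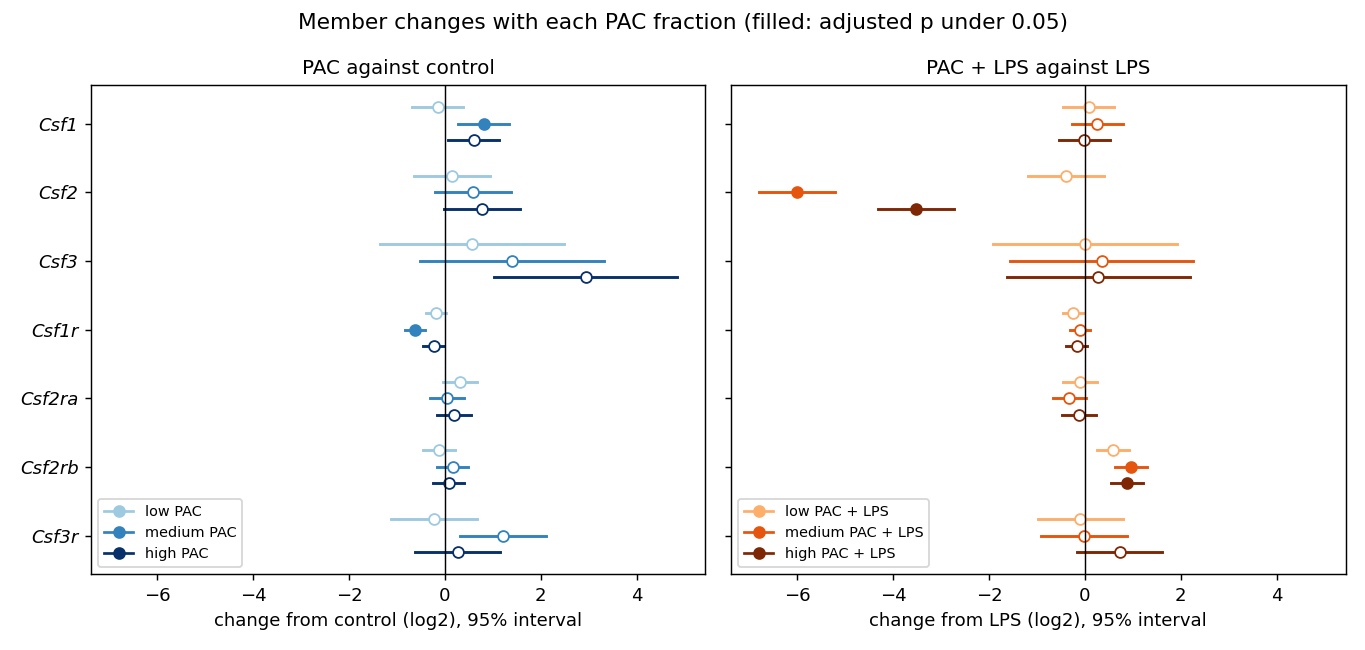
Change of each member with low, medium and high PAC (horizontal axis, log2; points are limma estimates, lines 95% intervals, 3 arrays a group), without LPS against control on the left and with LPS against LPS on the right; filled points had an adjusted p under 0.05. With LPS, Csf2 stands at -6.00 for medium and -3.53 for high PAC, while Csf2rb lies at 0.96 and 0.87.

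In cells without LPS the question was whether PAC alone altered the members. Medium PAC lowered Csf1r and raised Csf1, while low and high PAC gave no member call. Of all gene features, 11.3% were called for medium PAC, 6.85% for high PAC and 0.036% for low PAC. By limma, 3 members had an unadjusted p under 0.05 for high PAC and 0 for low PAC. These comparisons share the control arrays.

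Csf1r was at 16.80, 16.83 and 16.97 in medium PAC, below every control array, and fell by 0.63 ± 0.10 (adjusted p = 0.000172). This call was kept in all 33 alternative settings, with changes from -0.68 to -0.60. Its values were 17.38, 17.23 and 17.32 in low PAC and 17.25, 17.26 and 17.27 in high PAC, also below the control arrays, but with adjusted p of 0.999 and 0.215 the differences of -0.19 and -0.24 were not called; the latter was called with a trended robust prior (adjusted p = 0.0181). Without the 3 arrays that stood apart, the medium PAC change was -0.68 (adjusted p = 0.00093).

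Csf1 was at 4.08, 4.92 and 5.43 in medium PAC, where 2 of 3 arrays exceeded the silent level, and rose by 0.81 ± 0.25 over control (adjusted p = 0.0454). The array 3 that stood apart in Il1b held the highest value. Without it the change was 0.49 (adjusted p = 0.271; 0.191 without all 3 arrays that stood apart), and the call was lost in 22 of 33 alternative settings, among them the omission of any control array (adjusted p = 0.142, 0.0889 and 0.0904 without arrays 1, 2 and 3) or of medium PAC array 2 (0.127). Leaving out any array of low PAC, low PAC + LPS or high PAC + LPS, or high PAC array 3, LPS array 2 or medium PAC + LPS array 1, gave adjusted p from 0.0512 to 0.0555. High PAC values were 4.20, 5.11 and 4.51, with a difference of 0.60 (adjusted p = 0.208). It was 0.19 without the 3 arrays, where only array 1 of high PAC is left.

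Csf3 was at 3.62, 3.75 and 6.91 in medium PAC and at 3.13, 7.36 and 8.41 in high PAC, so that the high values lay on the same 3 arrays as the high Il1b values. The part of whatever set these arrays apart was not tested. The differences from control were 1.40 (adjusted p = 0.423) and 2.94 (95% interval 1.03 to 4.85, adjusted p = 0.0606). With those 3 arrays left out, which leaves only array 1 of high PAC, the difference was 0.32 for medium and -0.23 for high PAC. The omitted arrays held the highest Csf3 values of these groups, so a smaller difference was bound to follow. The high PAC difference was called with the silent-level filter (adjusted p = 0.0354), with a replicate block (0.0358), without medium PAC array 3 (0.0293) and without high PAC array 1, the low one, where it was 4.52 (0.000175). Csf2 stayed below the silent level on all arrays without LPS but array 1 of high PAC, at 4.94. Csf3r reached 6.13, 6.70 and 6.00 in medium PAC, with a difference of 1.21 from control (adjusted p = 0.0798), and the control array 2, at 6.08, lay within that range. This difference was called with a trended robust prior (adjusted p = 0.03), with the silent-level filter (0.0468) and without control array 2, where it was 1.71 (0.0111). Csf2ra and Csf2rb differed from control by at most 0.32 and 0.16 in any PAC group without LPS, with no call.

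**Figure D3:**
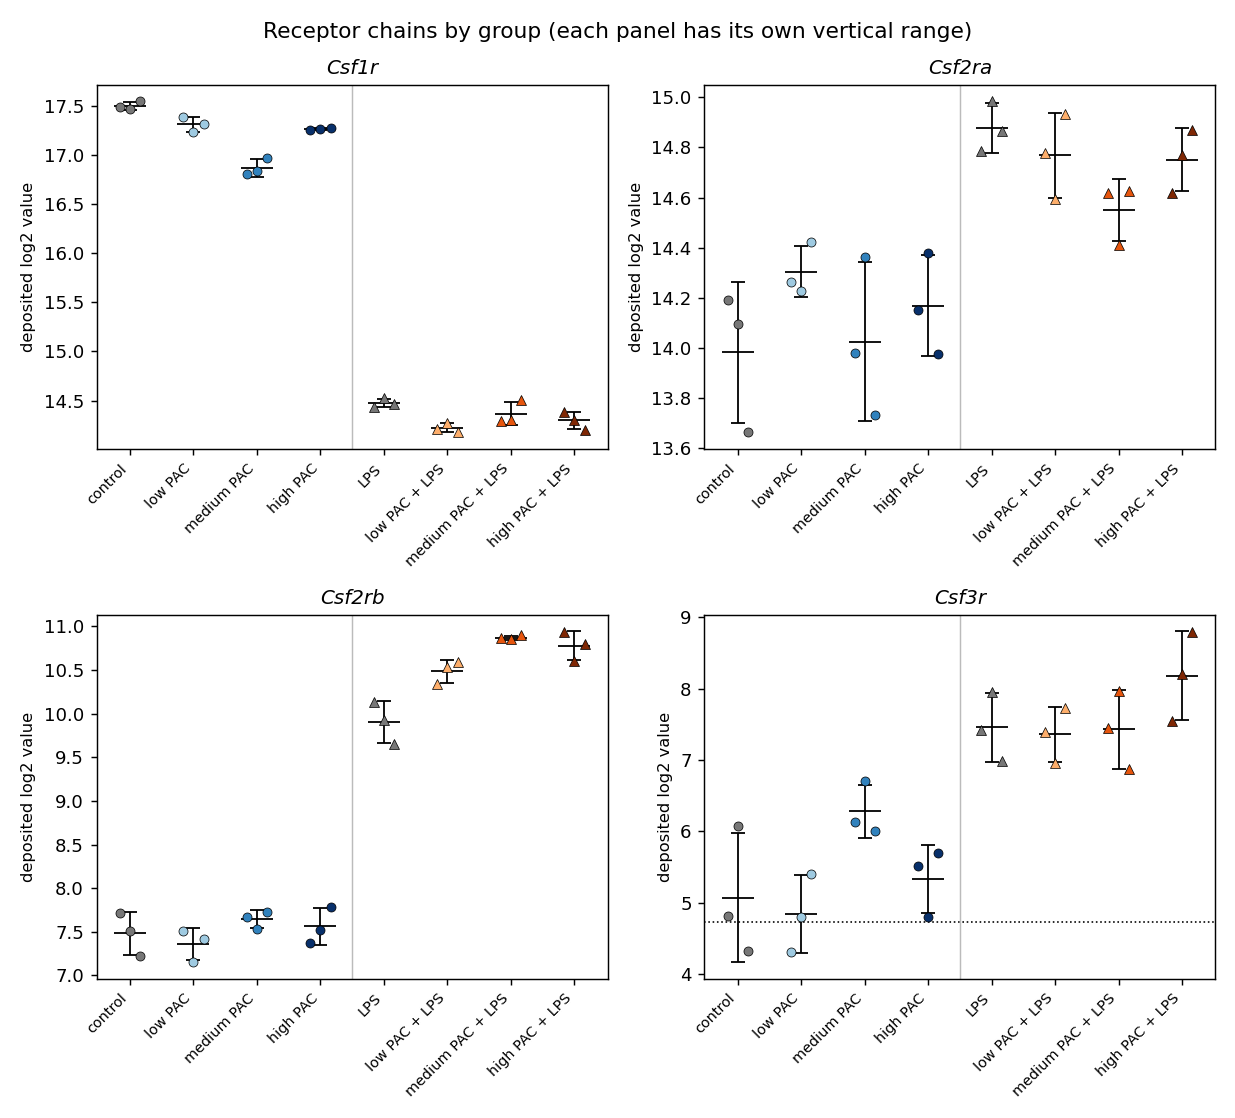
Deposited log2 values of the 4 measured receptor chains (vertical axis, own range in each panel) on each array in the 8 groups (horizontal axis), circles without and triangles with LPS; bars give mean ± SD of 3 arrays and the dotted line, where in range, the silent level of 4.73. Csf1r is lowest among resting groups in medium PAC, with a mean of 16.87 against 17.50 in control, and Csf2rb under LPS is higher with medium and high PAC than with LPS alone.

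The fractions, which share their source and differ in mean chain length, were compared pairwise at equal mass in 6 pairs, with p-values adjusted jointly over the 133236 tests of all pairs. With LPS, Csf2 separated each pair. It was lower with medium than with low PAC by 5.60 ± 0.38 (change -5.60, adjusted p = 4.61e-09), lower with high than with low PAC (change -3.13, adjusted p = 1.21e-05), and lower with medium than with high PAC (change -2.47, 95% interval -3.27 to -1.67, adjusted p = 0.000194). Csf2 was the only member called in each of these pairs, where 10.8%, 6.93% and 5.85% of all features were called. The order of Csf2 with LPS therefore did not follow chain length, with the medium fraction lowest. Csf2rb did not separate medium from high PAC with LPS (difference 0.09, 95% interval -0.24 to 0.42), nor medium from low PAC (0.38, 0.05 to 0.71, adjusted p = 0.187) or high from low PAC (0.29, -0.04 to 0.62).

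Without LPS, medium and low PAC differed in 3 members, of 8.19% of all features called. Csf1r was lower with medium PAC (change -0.44 ± 0.10, adjusted p = 0.00866), and Csf1 (0.96 ± 0.25, adjusted p = 0.0245) and Csf3r (1.44 ± 0.43, adjusted p = 0.0473) were higher. The Csf1r call was lost when only the compared groups (adjusted p = 0.166) or only the 12 arrays without LPS (0.0507) were fitted. Without the 3 arrays that stood apart the Csf1r change was -0.49, and the call was kept. The Csf1 call was lost without low PAC array 1 or 2 or medium PAC array 2 or 3 (adjusted p = 0.0801, 0.0684, 0.0777 and 0.147), with the compared groups alone (0.203), with the 12 arrays without LPS (0.11) and without the 3 arrays that stood apart (change 0.65, 0.096). The Csf3r call was lost in 18 of 33 settings, among them without those 3 arrays (0.0803), 14 of them the omission of a single array (adjusted p from 0.0535 to 0.188), namely control array 1, low PAC 1 or 2, any medium PAC array, high PAC 1 or 3, LPS 1, any low PAC + LPS array, medium PAC + LPS 1 or high PAC + LPS 2. Between medium and high PAC, with 3.34% of features called, Csf1r alone was called, lower with medium PAC (change -0.39 ± 0.10, adjusted p = 0.0202). That call was lost without medium PAC array 1 or 2 or high PAC array 2 or 3 (adjusted p = 0.0777, 0.0639, 0.0522 and 0.0505), with the compared groups alone (0.227), with the 12 arrays without LPS (0.0831) and with quantile normalization (0.0507). Without the 3 arrays that stood apart, only array 1 of high PAC is left. The Csf1r change was then -0.43, and the call was not kept. High and low PAC differed in no member by limma, against 5.49% of features, with 2 members at an unadjusted p under 0.05. Leaving out 1 array changed this: Csf1 was called, higher with high PAC, without medium PAC array 1 (adjusted p = 0.0274), medium PAC array 3 (0.0459) or high PAC array 1 (0.0417). Without high PAC array 1, Csf3 was also called against low PAC (3.96, adjusted p = 0.000499) and between medium and high PAC (-3.12, 0.00456).

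The interaction asked whether the LPS response itself differed with PAC present. The LPS response of Csf2 was 8.21 without PAC, 7.66 with low, 1.62 with medium and 3.90 with high PAC. The difference in response was -6.59 ± 0.54 for medium PAC (adjusted p = 7.5e-08) and -4.31 ± 0.54 for high PAC (adjusted p = 9.03e-05), and for low PAC -0.55 (95% interval -1.68 to 0.57, adjusted p = 0.999). Since resting Csf2 lay below the silent level in most arrays, these responses depend on the array floor, as above. Of all features, 6.29% were called for the medium, 1.91% for the high and 0% for the low PAC interaction, with 3, 1 and 0 members among them; the low PAC interaction had 1 member at an unadjusted p under 0.05.

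The other members called in the medium PAC interaction were receptor chains. Csf1r fell by 2.50 with LPS in medium PAC cells and by 3.02 without PAC, a difference of 0.52 ± 0.14 (adjusted p = 0.0325), and its starting level was the lower one in medium PAC. Csf2rb rose by 3.23 against 2.42, a difference of 0.80 ± 0.22 (adjusted p = 0.0344), and for high PAC the difference was 0.79 (adjusted p = 0.0844) and for low PAC 0.70 (95% interval 0.24 to 1.17, adjusted p = 0.828). The high PAC difference was called with the silent-level filter (adjusted p = 0.0348) and without control array 3 (0.92, 0.0473), and that of Csf3 for high PAC, -2.66 (adjusted p = 0.445), without high PAC array 1 (-4.24, 0.0123). Both medium calls were narrow, and without the 3 arrays that stood apart the adjusted p was 0.0472 for Csf1r and 0.0507 for Csf2rb. That for Csf1r was lost in 10 of 32 settings, 8 of them the omission of 1 array: control 1, 2 or 3, medium PAC 1 or 2, LPS 1 or 3, or medium PAC + LPS 3 (adjusted p from 0.0517 to 0.0949). That for Csf2rb was lost in 13 of 32, 9 of them the omission of control array 1 or 2, medium PAC 1 or 2, LPS 2 or 3, or any medium PAC + LPS array (adjusted p from 0.0569 to 0.103).

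In the order of group means, Csf2 was highest in LPS (11.72 ± 0.26, SD, n = 3) and low PAC + LPS (11.32 ± 0.39), which overlapped, then high PAC + LPS (8.19 ± 0.02), medium PAC + LPS (5.72 ± 0.60) and the 4 groups without LPS, from 4.29 to 3.51, which overlapped with their neighbours. For Csf1 and Csf3 every array with LPS lay above every array without it, and the 4 LPS groups had Csf1 means from 11.03 to 11.30 and Csf3 means from 16.64 to 16.99. Csf1r ran from control (17.50 ± 0.04) through low PAC (17.31 ± 0.08) and high PAC (17.26 ± 0.01), which overlapped, to medium PAC (16.87 ± 0.09), and the 4 groups with LPS followed from 14.47 to 14.22, each overlapping its neighbour. All Csf1r arrays of low PAC + LPS and of high PAC + LPS still lay below every LPS array, without a call. Csf2rb was highest in medium PAC + LPS (10.87 ± 0.02) and high PAC + LPS (10.78 ± 0.17), which overlapped, followed by low PAC + LPS (10.49 ± 0.13), LPS (9.91 ± 0.24) and the groups without LPS, from 7.64 to 7.36. Csf2ra spanned the narrowest range of group means, from 13.98 in control to 14.88 in LPS, and every group overlapped its neighbour. Its medium PAC + LPS arrays lay below every LPS array, without a call. Where overlap of neighbours is given, groups further apart in the order may not overlap. Csf3r was highest in high PAC + LPS (8.18 ± 0.63), which overlapped the other LPS groups. The medium PAC mean (6.28 ± 0.37) stood between these and the other groups without LPS, but its arrays overlapped those of control.

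Genes with the pattern most like a member were sought among 11299 genes by Pearson correlation over the 24 arrays, each array taken relative to the mean of control or of LPS, whichever shared its LPS state. The arrays share these reference groups and the treatments, so the correlations are descriptions. Csf2 was closest to Cish, encoding a STAT5-induced inhibitor of cytokine receptors (r = 0.969), and then to Lif, encoding a cytokine of the IL-6 family (r = 0.966). Over the 12 arrays with LPS these correlations were 0.983 and 0.987, and without LPS -0.11 and 0.62. Csf3 was closest to the chemokine genes Cxcl2 (r = 0.922) and Ccl22 (r = 0.903) and to Gbp3, encoding an interferon-induced GTPase (r = 0.891). For Csf3 the likeness lay in the resting arrays (r = 0.917, 0.929 and 0.880) that include the 3 arrays standing apart, and with LPS it was 0.60, -0.61 and 0.10. Csf1 was closest to Ifit3 (r = 0.839), an interferon-induced gene, Gbp3 (r = 0.825) and Csrnp1 (r = 0.802), and Csf1r to Btg1 (r = 0.875), encoding an antiproliferative protein, St3gal5 (r = 0.874), encoding a ganglioside synthase, and Pa2g4 (r = 0.871). In both cases the likeness was higher in the resting arrays: for Csf1 0.90, 0.85 and 0.85 without LPS and -0.01, 0.30 and 0.02 with it, and for Csf1r 0.96, 0.90 and 0.96 without LPS and 0.34, 0.69 and 0.56 with it.

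The wider pathway was read from 5 lists with 61 genes, of which 55 were measured. Low PAC, with or without LPS, gave no call in any list. The share of list genes called stands beside that of all features, of which 12744 of 22206 exceeded the silent level in a group. Every measured signal transducer, attenuator, transcription factor and mRNA decay or stability factor exceeded it, and 5 of 13 related cytokines and receptors did. The 2 shares are therefore not matched for expression. Among related cytokines and receptors, LPS raised 3 of 13 measured genes and lowered 1 (30.8% called, against 33.7% of all features). One of those raised, Il3, stayed below the silent level with LPS, at a mean of 4.19. Lif went from 3.50 ± 0.54 (SD, n = 3) to 16.06 ± 0.20, a change of 12.57 ± 0.33 (standard error; adjusted p = 7.57e-17) from a control mean below the silent level, which the LPS mean exceeded by 11.34. Kitl, the ligand of the KIT receptor and a growth factor for early blood cells, fell by 1.56 ± 0.20 to 8.59 ± 0.09 (SD; adjusted p = 1.76e-06). Against LPS, medium PAC + LPS had Lif lower at 11.91 ± 0.08 (change -4.16, adjusted p = 9.14e-09) and Kitl higher at 9.76 ± 0.16 (change 1.18, adjusted p = 0.000221). High PAC + LPS called the same 2 in these directions (15.4% in either comparison, against 14.6% and 10.1% of all features). No other gene of this list was called in those comparisons. Kitl also rose with medium and high PAC without LPS (changes 0.72 and 0.76), so its rise was not confined to cells with LPS.

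Among the signal transducers, LPS raised 10 of 14 measured genes and lowered 2 (85.7% called, against 33.7% of all features), and medium PAC + LPS raised 1 and lowered 7 (57.1% against 14.6%). The median change over the list was 0.53 with LPS and -0.63 with medium PAC + LPS, against 0.03 and 0.01 over all features. Jak2, the kinase bound to the GM-CSF receptor beta chain, rose by 4.55 ± 0.17 with LPS (adjusted p = 1.05e-14) and fell by 1.96 ± 0.17 with medium PAC + LPS (adjusted p = 3.24e-08). Fes, a tyrosine kinase of myeloid cells, fell by 2.12 with LPS (adjusted p = 7.73e-07). Gab2, an adaptor for PI3 kinase signalling, rose by 1.20 ± 0.22 with medium PAC + LPS (adjusted p = 0.000513). Stat3, Stat5a, Fes, Sos1, Pik3cd and Ptpn11 made up the rest of the 7 that fell. High PAC + LPS raised 2 and lowered 4 (42.9% against 10.1%). Without LPS, Gab2 rose by 2.47 ± 0.22 with medium PAC (adjusted p = 8.5e-08).

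Among the attenuators of cytokine signalling, LPS raised 4 of 10 and lowered 3 (70% called, against 33.7% of all features), and medium PAC + LPS raised 1 and lowered 5 (60% against 14.6%). Cish went from 2.06 ± 0.15 (SD, n = 3) in control to 10.49 ± 0.12 with LPS, 3.11 ± 0.58 with medium PAC + LPS and 6.57 ± 0.52 with high PAC + LPS. Its change with medium PAC + LPS was -7.39 ± 0.26 (standard error; adjusted p = 9.98e-14), to a mean below the silent level, as in control; the LPS mean was 5.77 above that level, and with high PAC + LPS -3.93 (adjusted p = 2.78e-09). Socs3, encoding the feedback inhibitor of the G-CSF receptor, rose by 10.82 ± 0.40 with LPS (adjusted p = 1e-14) and fell by 1.85 with medium PAC + LPS (adjusted p = 0.00248), where Socs1, Ptpn6 and Inpp5d also fell. The control mean of Socs3, 4.90 ± 0.78 (SD), lay near the silent level. Inpp5d, encoding the lipid phosphatase SHIP1, fell by 2.40 ± 0.17 with LPS (adjusted p = 2.32e-10). Cblb, encoding a ubiquitin ligase, rose by 1.47 ± 0.18 with medium PAC + LPS (adjusted p = 4.93e-06). High PAC + LPS raised 1 and lowered 2 of this list (30% against 10.1%).

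Among transcription factors of myeloid genes, LPS raised 4 of 10 and lowered 2 (60% called, against 33.7% of all features). Ets2 rose by 3.57 ± 0.17 (adjusted p = 3.27e-13), and Cebpa, a factor of myeloid differentiation, fell by 4.06 ± 0.29 (adjusted p = 2.94e-10). Medium PAC + LPS raised 2 and lowered 4 (60% against 14.6%), with Jun 1.30 ± 0.17 higher (adjusted p = 9.46e-06) and Fos lower (change -1.73 ± 0.21, adjusted p = 3e-06), the subunits that pair as AP-1. High PAC + LPS raised 1 and lowered 2 (30% against 10.1%). Among factors of mRNA decay and stability, LPS raised 4 of 8 and lowered 3 (87.5% called, against 33.7% of all features), with the endonuclease gene Zc3h12a up by 6.27 ± 0.22 (adjusted p = 3.21e-15) and Zfp36l2, encoding a protein that binds AU-rich elements, down (change -3.83 ± 0.13, adjusted p = 3.71e-15). Medium PAC + LPS raised 2 and lowered 3 of them (62.5% against 14.6%), with Zfp36l2 higher by 0.83 ± 0.13 (adjusted p = 0.000122) and its relative Zfp36l1 lower (change -3.78 ± 0.19, adjusted p = 9.83e-12). High PAC + LPS raised 1 and lowered 1 (25% against 10.1%).

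**Figure D4:**
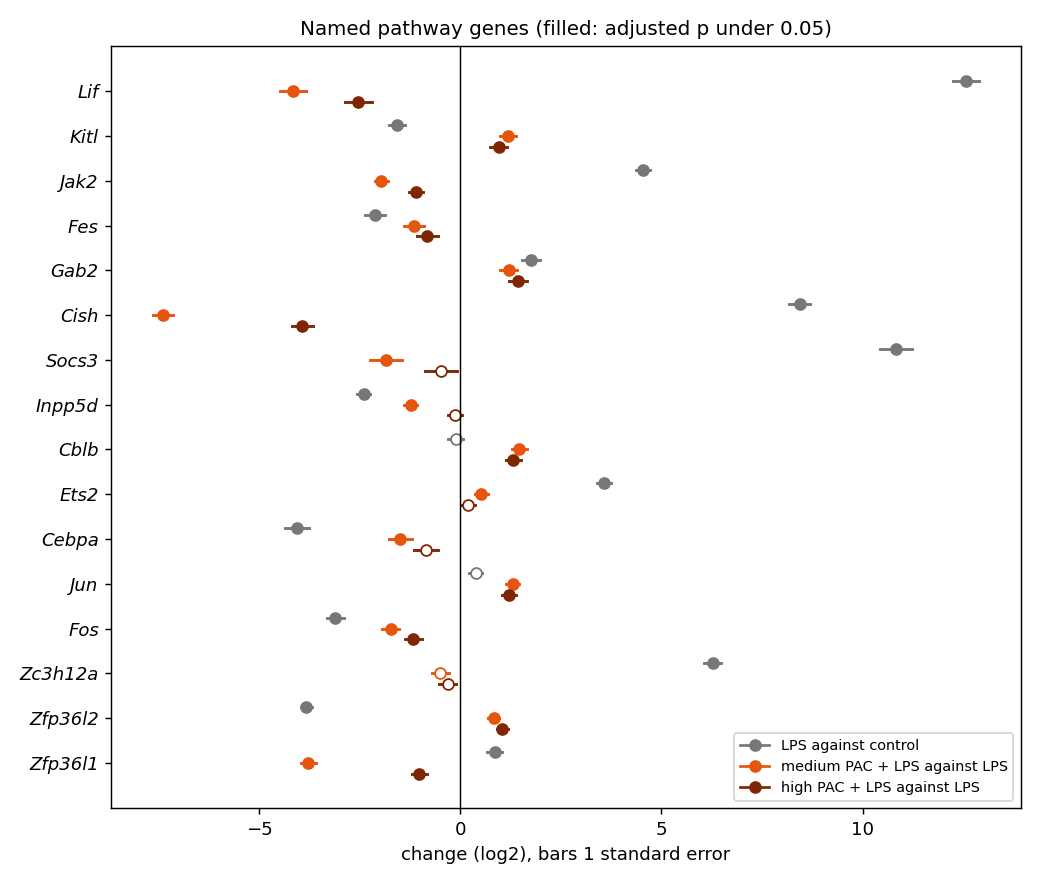
Change of 16 named pathway genes (horizontal axis, log2; points are limma estimates, bars 1 standard error, 3 arrays a group) with LPS against control and with medium or high PAC + LPS against LPS; filled points had an adjusted p under 0.05. Lif and Cish rise with LPS and lie at -4.16 and -7.39 with medium PAC + LPS; their control means, and that of Cish with medium PAC + LPS, are below the silent level, so the sizes of those changes depend on the array floor.

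Without LPS, medium PAC called 12 of the 55 genes over the 5 lists (21.8%, against 11.3% of all features) and high PAC 6 (10.9% against 6.85%). Jun rose by 2.36 ± 0.17 with medium PAC (adjusted p = 3.66e-09) and by 1.59 ± 0.17 with high PAC (adjusted p = 2.88e-06), and Fos fell by 2.06 ± 0.21 with medium PAC (adjusted p = 4.32e-07). Ets2 rose by 1.31 with medium and 0.77 with high PAC (adjusted p = 9.74e-06 and 0.00527). Kitl rose by 0.72 and 0.76 (adjusted p = 0.0217 and 0.0229), and Zfp36l1 fell by 1.95 and 1.00 (adjusted p = 2.26e-07 and 0.00148). Cish and Lif were not called for any PAC fraction in these cells.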

How the data were processed

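Per the study's methods, total RNA was labelled and hybridised to Clariom S mouse arrays, and Transcriptome Analysis Console was used. The authors deposited 1 table of normalized log2 values for 28846 features on 24 arrays. How features were summarised was not stated in the sources used. Values ran from 0.95 to 19.26, with 8242 above 16, the largest log2 of a 16-bit pixel, so the scale was stretched or shifted and changes are differences on it. Array controls (6640 features) were left out. The remaining 22206 were fitted with limma 3.58.1 in R 4.3.3, with a mean for each group over all 24 arrays (16 residual degrees of freedom), and 16 comparisons were tested. The script was tested on simulated data. Every column was used.

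Members and lists were chosen with earlier results of these data known. All measured members were named. The 3 genes most like Csf1, Csf2, Csf3 and Csf1r in pattern were named, except 1 that is not reported here. For each list, the called genes with the largest change in each direction were named for LPS against control and for medium PAC + LPS against LPS. Other genes of the lists in the text, and the resting values, were chosen after their values were seen. Precision is limited by 3 arrays a group. Alternatives comprised normalization (quantile, median centring), the compared groups alone, a filter at the silent level, array weights, a trended robust prior, a replicate block, and leaving out arrays.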

Additional observations from a re-analysis of the deposited data

Results flagged for a closer look

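Of the 21 member tests of whether PAC altered the response to LPS, 4 passed the threshold and are listed here because the effect of a PAC fraction differed between cells with and without LPS. The share of all features called was 6.29% for the medium, 1.91% for the high and 0% for the low PAC interaction. For Csf2 the effect of medium PAC on the log2 scale was 6.59 lower with LPS than without it (-6.59, adjusted p = 7.5e-08, limma), and that of high PAC 4.31 lower (-4.31, adjusted p = 9.03e-05). Resting Csf2 lay below the silent level on most arrays, so a fall there could not show, and these Csf2 differences depend on the array floor. For Csf1r the effect of medium PAC differed by 0.52 (adjusted p = 0.0325): Csf1r fell in resting cells and had no call with LPS. For Csf2rb it differed by 0.80 (adjusted p = 0.0344): the gene had no call in resting cells and rose with LPS. The Csf2 differences were kept in every alternative setting tried, whereas those of Csf1r and Csf2rb were lost in 10 and 13 of 32.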

How the results depend on the processing

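Of 24 called member changes, 16 were called in every alternative setting tried: the 7 changes with LPS, Csf1r with resting medium PAC, Csf2 with medium and high PAC + LPS, its 3 differences between fractions and its 2 interactions, and Csf2rb with medium PAC + LPS. No call reversed. Over 9 other settings 180 of 205 values kept their call and 25 lost it, and over 24 single-array omissions 520 of 576 kept it and 56 lost it; causes were not tested. For medium PAC against control the count of called members was 1 in place of 2 with quantile normalization, with median centring, with the compared groups alone, without the 3 resting arrays that stood apart, and with arrays of the same LPS state, a setting added after the data were seen; it was 3 with the silent-level filter and with the trended robust prior, each of which added Csf3r, and ranged from 1 to 2 over single-array omissions. For high PAC against control it was 1 in place of 0 with the silent-level filter (Csf3), with the trended robust prior (Csf1r) and with the replicate block (Csf3), and ranged from 0 to 1 over omissions (1 without medium PAC array 3 or high PAC array 1). For high PAC + LPS it was 1 in place of 2 with the compared groups alone. Differences between fractions in resting cells numbered 0 in place of 4 with the compared groups alone and with arrays of the same LPS state, 1 without the 3 arrays, and 1 to 6 over omissions. Interactions numbered 2 in place of 4 with the compared groups alone and 2 to 5 over omissions.

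Replicate numbers did not pair the arrays: deviations of same-numbered arrays correlated between -0.09 and 0.13, and 8 of 24 arrays correlated best with their own number. With the replicate block, Csf3 was added for high PAC against control, which gave 1 called member, and Csf3r (medium against low PAC, resting, adjusted p = 0.0545) and Csf1r (medium PAC interaction, adjusted p = 0.0505) were lost.

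Signal over background limits the sizes of the LPS rises of the 3 ligands, Lif and Cish, whose control means lay below the silent level. The rises of Socs3 and Csf3r began near that level, with control means of 4.90 and 5.07.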
